A study of Mus musculus with 2 samples.

Results

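The 7 genes described here code for EF-hand calcium buffers and sensors of the inner ear, and their models were read from the annotation deposited with the series. They were Ocm, Pvalb, Calb1, Calb2, Cabp1, Cabp2 and S100a1, taken as every row of the annotation with 1 of these gene symbols. All 7 symbols matched 1 gene each, of 28002 genes in all. The series compared 2 droplet libraries of cochlear cells at postnatal day 8, 1 from cochleae given an Anc80 virus with Ikzf2, a transcription factor gene, and 1 from cochleae given an Anc80 virus with GFP as a control. Mice of both groups were Myo15-Cre;Ai14, in which Cre is driven by a hair cell promoter and Ai14 is a tdTomato reporter that Cre switches on, and cells with tdTomato were sorted before capture. Each group was 1 library with no replicate, and the expression of the 7 genes in the Ikzf2 and GFP libraries was not analysed here. Every value below is a property of a gene model on mouse assembly GRCm38, so it has no sampling error, and no test was run.

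An EF-hand is a helix, a loop and a second helix, and the loop of 12 residues holds the calcium ion with acidic and polar side chains. The side chain at loop residue 12 is usually a glutamate that gives both of its oxygens to the ion. Buffers such as oncomodulin, parvalbumin, calbindin and calretinin take up calcium that enters through channels of the hair cell, whereas sensors change shape on binding calcium and act on a partner protein. In the cochlea Ocm is known as a gene of outer hair cells and Cabp2 as a gene of hair cells whose loss impairs hearing.

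The coding sequences of both parvalbumin genes and of Cabp1 and Cabp2 ended in the same way. In Ocm, Pvalb, Cabp1 and Cabp2 the last intron interrupted the codon of residue 12 of the last loop after its first base, which is called phase 1 (phase 0 lies between codons and phase 2 after the second base). The 4 exon junctions are shown for this reason, each as the last 15 bases of the exon before the intron and the first 15 bases of the exon after it, with the codon at the junction in capitals.
Ocm, coding intron 3: agattggggctgatGAAttccaggaaatgg
Pvalb, coding intron 3: agattggggttgaaGAAttctccactctgg
Cabp1, coding intron 5: gagtggactttgaaGAGtttgtccggatga
Cabp2, coding intron 6: tggttgactttgaaGAAtttgttcggatga
The codon in capitals was GAA or GAG in all 4 genes, both of which code for glutamate. Sequences here and below were read from GENCODE M21 transcripts with the same coding exons, also on GRCm38. Ocm and Pvalb matched at 21 of the 30 bases of this junction, and Cabp1 and Cabp2 at 25 of 30. The intron lay between base 144023824 and base 144020101 of chromosome 5 in Ocm and between 78201226 and 78191694 of chromosome 15 in Pvalb. In Cabp1 it lay between 115172759 and 115169148 of chromosome 5, and in Cabp2 between 4086595 and 4087111 of chromosome 19.

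The position was compared with that in other genes. Loops were found with the PROSITE EF-hand pattern, which allows only D or E at residue 12. Each of the 7 genes held at least 1 match, against 1.01% of the protein-coding genes searched (210 of 20791). The pattern is part of what defines the proteins, so the count of 7 says nothing new about them. In 12 of the 210 genes with a match, the last loop was cut in the codon of residue 12 in phase 1. Ocm, Pvalb, Cabp1 and Cabp2 were among them. A list of 30 EF-hand genes was used to add 23 relatives to the 7 genes. Among these relatives Cabp4, Calm2 and Calm3 had the same cut, and Calm2 and Calm3 code for calmodulin, the general calcium sensor of animal cells. Other relatives of Cabp1 and Cabp2 had no such cut in a matching loop. Cabp5 had no loop cut, and Cabp7 and Caln1 had the last matching loop cut in the codon of residue 4. Cabp7 and Caln1 had 2 matching loops each, against 3 in Cabp1 and Cabp2, so their last matching loop may be an earlier EF-hand. After it came a phase 0 intron, then a phase 1 intron 277 coding bases from the loop start in Cabp7 and 280 in Caln1. Whether that intron cuts a later EF-hand that misses the pattern was not tested.

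**Figure D1:**
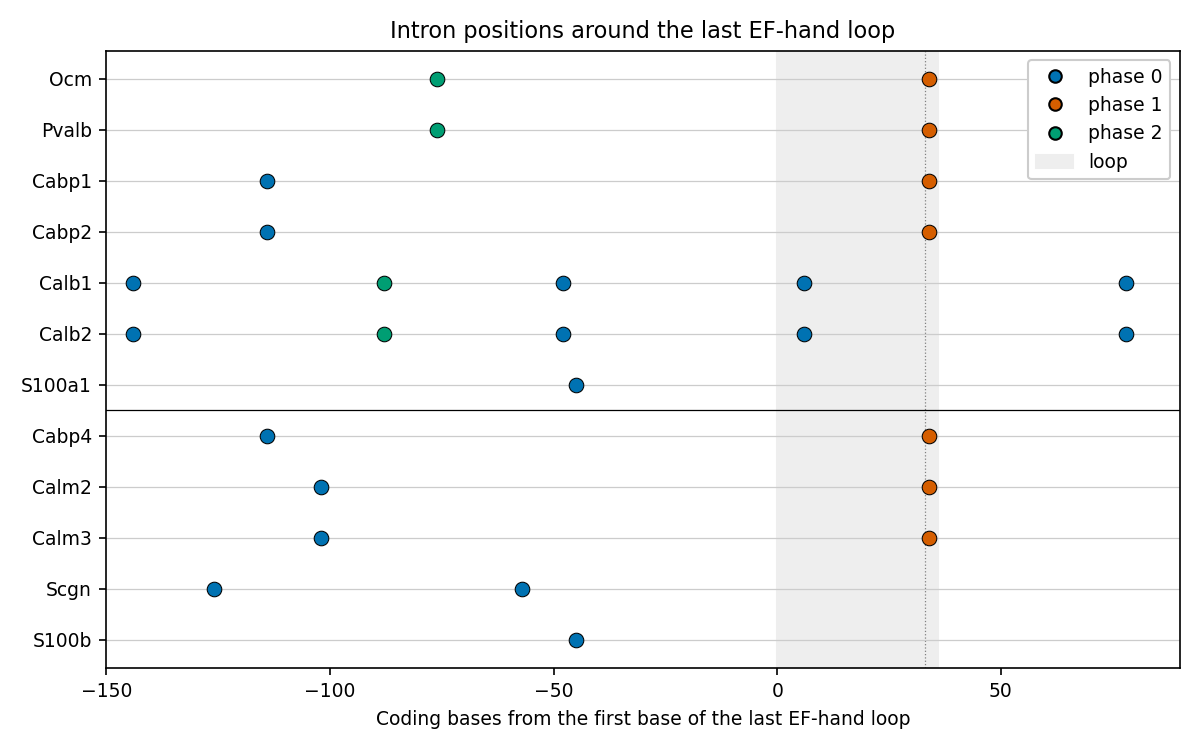
Introns of the main transcripts around the last EF-hand loop that matched the pattern. The x axis gives coding bases from the first base of that loop, the grey band is the loop, the dotted line is the first base of the codon for residue 12, and points are introns coloured by phase. The 7 genes stand above the horizontal line and 5 relatives below it. Ocm, Pvalb, Cabp1, Cabp2, Cabp4, Calm2 and Calm3 have a phase 1 intron at the same place near the end of the loop, which Calb1, Calb2, S100a1, Scgn and S100b lack. Cabp5, Cabp7 and Caln1, which also lack it in their last matching loop, are not drawn.

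The annotation held 3 transcripts of Ocm, 2 of Pvalb, 3 of Calb1, 1 of Calb2, 7 of Cabp1, 5 of Cabp2 and 2 of S100a1. The main transcript of a gene was its complete protein-coding transcript with the longest coding sequence. Oncomodulin and parvalbumin are the 2 mammalian parvalbumins, small buffers with a pair of working EF-hands. Ocm (ENSMUSG00000029618, chromosome 5 from 144019804 to 144026670, minus strand) had 4 coding exons of 61, 133, 110 and 26 bases. Pvalb (ENSMUSG00000005716, chromosome 15 from 78191114 to 78206400, minus strand) had 4 coding exons of 61, 133, 110 and 29 bases. The first 3 coding exons were thus equal in length, and the last differed by 3 bases, or 1 codon. Ocm coded for 109 amino acids and Pvalb for 110. The run of 61, 133 and 110 bases was found in 2 of 21474 protein-coding genes with a complete transcript, Ocm and Pvalb themselves.

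All 3 coding introns of Ocm and Pvalb lay at the same column of a protein alignment and in the same phase, 1, 2 and 1 in that order. The proteins themselves were identical at 52 of 109 aligned residues (47.7%). The other pair of junctions shows codons that differ at the same intron position. At the first junction 14 of 30 bases matched, and at the second 18 of 30.
Ocm, coding intron 1: tgcaggaatgccaaGACccagacacctttg
Pvalb, coding intron 1: taggagcctttgctGCTgcagactccttcg
Ocm, coding intron 2: tgaagatgagctcAAGtatttcctacagag
Pvalb, coding intron 2: ggaggatgagctgGGGtccattctgaaggg
The capitals mark codon 21 at the first junction and codon 65 at the second. The pattern found 2 loops in each protein, at residues 52 to 63 and 91 to 102 in both. The first of these loops lay whole within coding exon 2, ending 5 bases before the intron, and the second was the one cut at residue 12.

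Intron lengths were not shared. The 3 coding introns of Ocm spanned 1085, 494 and 3722 bases, and those of Pvalb 1431, 1185 and 9531 bases. In both genes the last coding intron was the longest. Summed, the coding introns took 5301 bases in Ocm and 12147 bases in Pvalb.

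Calbindin and calretinin are larger buffers with 6 EF-hand domains, and Calb2 is widely used as a marker of inner hair cells. Calb1 (ENSMUSG00000028222, chromosome 4 from 15881264 to 15908064, plus strand) and Calb2 (ENSMUSG00000003657, chromosome 8 from 110142539 to 110168206, minus strand) had 11 coding exons each. Those of Calb1 had 79, 77, 75, 84, 57, 78, 56, 40, 54, 72 and 114 bases. Those of Calb2 had 94, 77, 90, 81, 57, 78, 56, 40, 54, 72 and 117 bases. Of the 11 exons, 7 were equal in length, and the other 4 differed by 3 to 15 bases, always by whole codons. Calb1 coded for 261 amino acids in 786 bases and Calb2 for 271 in 816 bases.

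The series of intron phases was the same in Calb1 and Calb2: 1 for the first intron, 2 for the seventh and 0 for the other 8. Of the 735 other genes with 11 coding exons, 2 had the phase series of Calb1, namely Calb2 and Scgn. Scgn codes for secretagogin, the third member of this family, and 3 of its 11 coding exons equalled those of Calb1 in length. The run of 57, 78, 56, 40, 54 and 72 bases was found in Calb1 and Calb2 and in no other of the 21474 genes. In the alignment of the 7 proteins, 9 of the 10 introns of Calb1 and Calb2 fell on the same column in the same phase. The remaining one, intron 2, lay 5 columns apart. Coding exon 2, between introns 1 and 2, had 77 bases in both genes. These 5 columns thus come from a gap that the alignment placed within this exon. The 2 proteins were identical at 155 of 260 aligned residues (59.6%).

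Calbindin matched the loop pattern 4 times and calretinin 5 times. The additional loop of calretinin, at residues 76 to 87, ended exactly at intron 3 of Calb2. Calbindin is known to bind calcium weakly or not at all through its second EF-hand. In both genes 2 loops were cut by an intron. Intron 1 interrupted the codon of loop residue 4 in phase 1, and intron 9 lay before the codon of loop residue 3. The junctions are shown because the same 2 loops are cut at the same residues in each gene.
Calb1, coding intron 1: atttcgacgctgacGGAagtggttacctgg
Calb2, coding intron 1: actttgatgctgacGGAaatgggtacattg
Calb1, coding intron 9: gagttatatgatCAGgatggcaacggatac
Calb2, coding intron 9: acattttatgacAAGgatggaagcggctat
Capitals mark the interrupted codon at intron 1 and the last codon before intron 9. Of 30 bases, 23 matched at intron 1 and 20 at intron 9. Across the 10 junctions the number ran from 12, at intron 2, to 23, at intron 1.

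The introns of Calb1 ranged from 95 to 9779 bases and those of Calb2 from 260 to 11047 bases. The longest was intron 3 in Calb1 and intron 1 in Calb2. The genes still spanned similar lengths, 26801 bases for Calb1 and 25668 bases for Calb2.

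**Figure D2:**
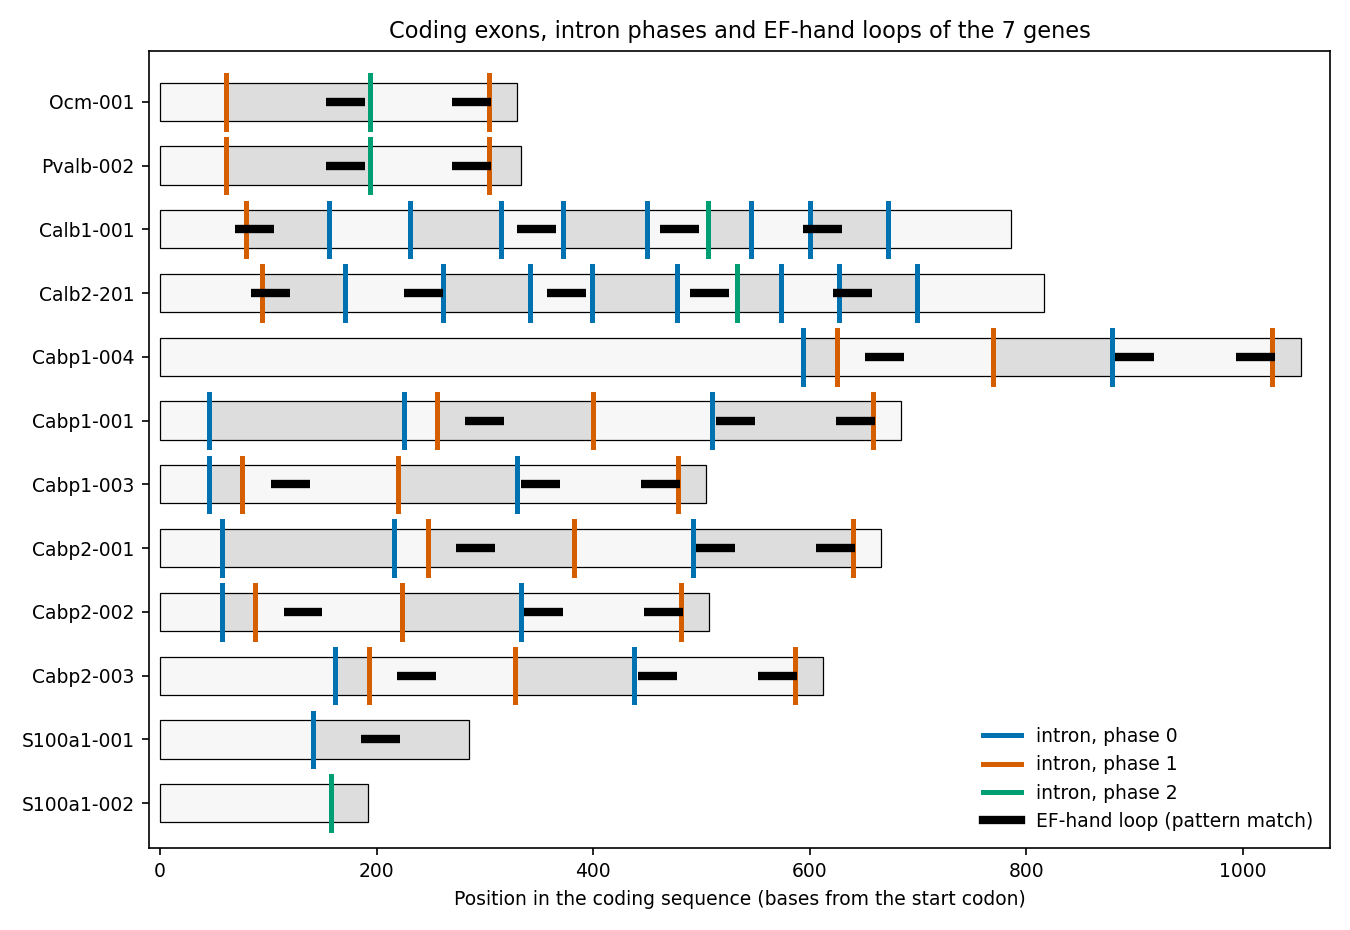
Coding sequence of the complete transcripts that differ in coding layout, drawn to scale along the x axis in bases from the start codon. Boxes are coding exons, coloured lines are introns by phase, and black bars are EF-hand loops found with the pattern. Ocm-001 and Pvalb-002 carry the same 3 introns, Calb1-001 and Calb2-201 have 11 exons each, and the Cabp1 and Cabp2 transcripts differ at the left and share their right part.

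CaBP1 and CaBP2 resemble calmodulin and are known to act on voltage-gated calcium channels. Cabp1 (ENSMUSG00000029544, chromosome 5 from 115168689 to 115194381, minus strand) had 3 complete coding transcripts. Cabp2 (ENSMUSG00000024857, chromosome 19 from 4081578 to 4087340, plus strand) had 3 as well. In every one of the 6, the coding sequence ended in 5 exons, which had 31, 144, 110, 148 and 26 bases in Cabp1 and 31, 135, 110, 148 and 26 bases in Cabp2. The difference of 9 bases in the second of these exons is 3 codons. The last 5 introns had phases 0, 1, 1, 0 and 1 in both genes and also in their relatives Cabp4, Calm2 and Calm3. A coding exon of 31 bases was present in these 5 genes and in Cabp5.

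Aligned over 214 residues, the main proteins of Cabp1 and Cabp2 were identical at 134 (62.6%). Of the 5 introns of Cabp1-004 and the 6 of Cabp2-001, 4 shared their column and phase. The intron after the exon of 144 or 135 bases lay 3 columns apart. The exon that follows it had 110 bases in both genes, so these 3 columns come from a gap that the alignment placed within that exon. Each protein had 3 loops that matched the pattern, where CaBP proteins are known to have 4 EF-hands of which the second is inactive. The second matching loop began 3 bases after an intron in both genes. Around that junction Cabp1 and Cabp2 matched at 27 of 30 bases, the highest number of the 18 junctions compared between the 3 pairs of genes.
Cabp1, coding intron 4: gacgcctttcggGAGtttgataccaacggt
Cabp2, coding intron 5: gacgccttccggGAGttcgacaccaacggt
Capitals mark the last codon before the intron.

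Cabp1 and Cabp2 differed from the other 5 genes in the start of the protein. Both had 2 annotated start codons among their complete transcripts, which was found in 12.6% of protein-coding genes. In Cabp1-004 the first exon held 594 coding bases, or 198 codons, which is the long form known as caldendrin. In Cabp1-001 and Cabp1-003 a first exon that began 8073 and 8260 bases further downstream held 45 coding bases, or 15 codons. Cabp1-001 then had an exon of 180 bases, or 60 codons, that Cabp1-003 left out. The proteins had 350, 227 and 167 amino acids in Cabp1-004, Cabp1-001 and Cabp1-003 and shared their last 152 residues.

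Cabp2 had the same arrangement on a smaller scale. Cabp2-003 began with an exon of 162 coding bases, or 54 codons. Cabp2-002 and Cabp2-001 began 1002 and 1031 bases further downstream with 57 coding bases, or 19 codons. Cabp2-001 had an exon of 159 bases, or 53 codons, that Cabp2-002 left out. The proteins had 203, 168 and 221 amino acids in Cabp2-003, Cabp2-002 and Cabp2-001 and shared their last 149 residues. Every one of these first exons and both optional exons ended in phase 0.

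The junctions show how the alternative exons reach the same exon of 31 bases. All are in phase 0, and the capitals mark the last codon before the intron.
Cabp1-004, coding intron 1: tccgccttcggcCAGgacagatcgttacga
Cabp1-003, coding intron 1: aacctctcaagaAAGgacagatcgttacga
Cabp1-001, coding intron 2: gagaacagacaaCCTgacagatcgttacga
Cabp2-003, coding intron 1: gctgcctacggaCAGgatcgagagctgaga
Cabp2-002, coding intron 1: caccgggggtctAAGgatcgagagctgaga
Cabp2-001, coding intron 2: gcggctacccagCTCgatcgagagctgaga
The long first exons of Cabp1-004 and Cabp2-003 both ended in CAG, and the short ones of Cabp1-003 and Cabp2-002 both ended in AAG. The bases to the right of each junction are the same within a gene because the exon is shared.

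**Figure D3:**
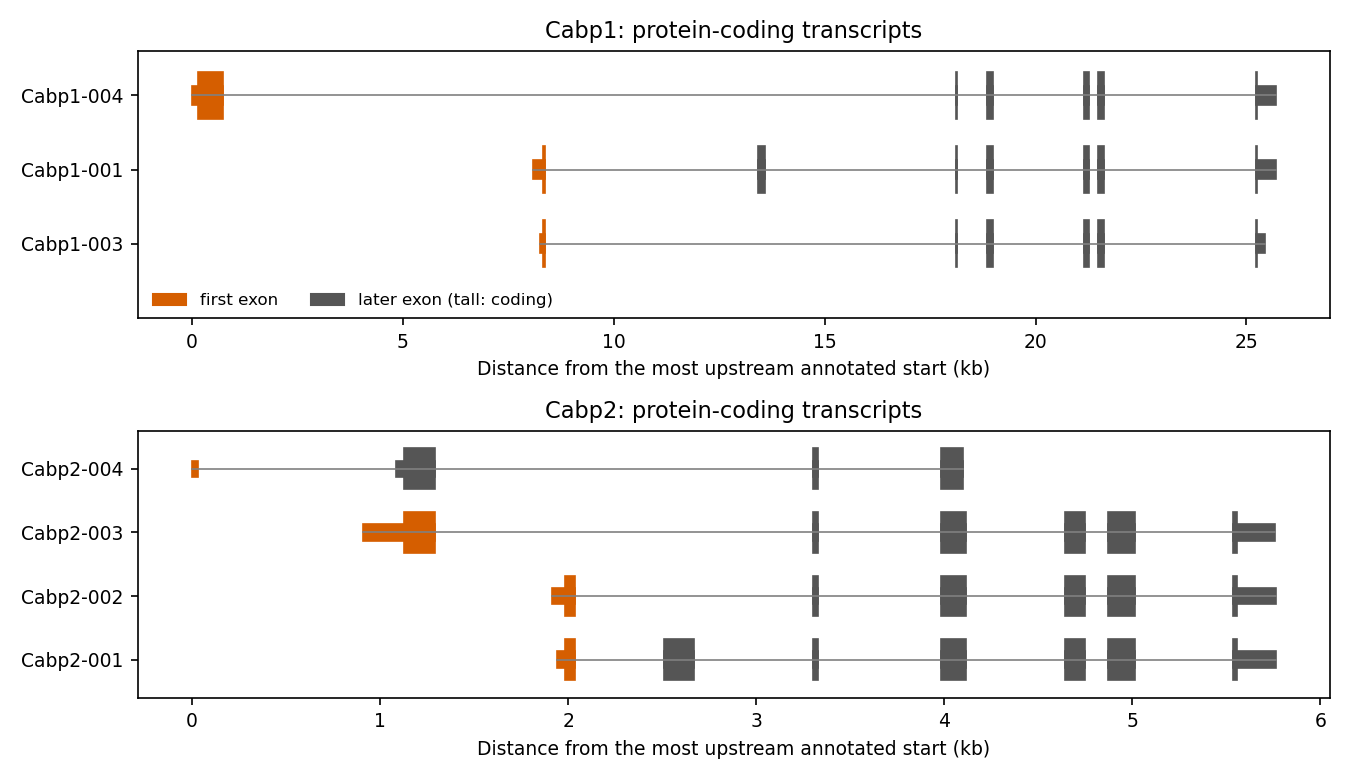
Protein-coding transcripts of Cabp1 (top) and Cabp2 (bottom). The x axis is the distance in kb from the most upstream annotated start of each gene, orange boxes are first exons, grey boxes later exons, and tall parts are coding. In both genes an upstream first exon and a downstream one are followed by the same small exon, and 1 transcript of each has an additional exon in between.

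S100a1 belongs to another branch of the EF-hand proteins, the S100 proteins, small dimers with 1 canonical and 1 longer, S100-specific loop. S100a1 (ENSMUSG00000044080, chromosome 3 from 90511034 to 90514392, minus strand) had 2 coding exons of 141 and 144 bases, 94 amino acids and a single coding intron in phase 0. The start codon lay in the second of its 3 exons. Of the 15 S100 genes listed, 13 had the same layout of 1 coding intron in phase 0, with first coding exons of 132 to 153 bases. The pattern found the canonical loop at residues 63 to 74, whole within the last exon and 45 bases after the intron.

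A second transcript, S100a1-002, kept the last exon but ran 17 bases further at the end of the exon before it, so the intron fell in phase 2.
S100a1-001, coding intron 1: tctggcttcctgGATgtccagaaggatgca
S100a1-002, coding intron 1: aagcacaggattgAGGtccagaaggatgca
Both sequences end in the same 15 bases, which are read in another frame in S100a1-002. Capitals mark the last codon before the intron in S100a1-001 and the interrupted codon in S100a1-002. The predicted protein of S100a1-002 had 63 amino acids, 31 fewer than that of S100a1-001, and held no match to the loop pattern. S100a1 was the only one of the 7 genes in which a complete transcript had no matching loop.

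Set beside all protein-coding genes with a complete transcript, the 7 genes were short in coding sequence. Their median coding length was 666 bases, from 285 for S100a1 to 1053 for Cabp1, against a median of 1191 bases over 21474 genes (quartiles 780 and 1965). The coding sequence was longer in 97.8% of these genes than in S100a1, in 96.2% than in Ocm, in 96.1% than in Pvalb and in 80.8% than in Cabp2. Their number of coding exons was not low: the median was 6 for the 7 genes and 6 for all genes. Calb1 and Calb2 combined many exons with a short coding sequence. The mean coding exon had 71.5 bases in Calb1 and 74.2 bases in Calb2, against a median of 162 bases over all genes, and was shorter than in Calb1 in 1.08% of them. The mean coding exon of Cabp1, 176 bases, includes the first exon of 594 coding bases.

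**Figure D4:**
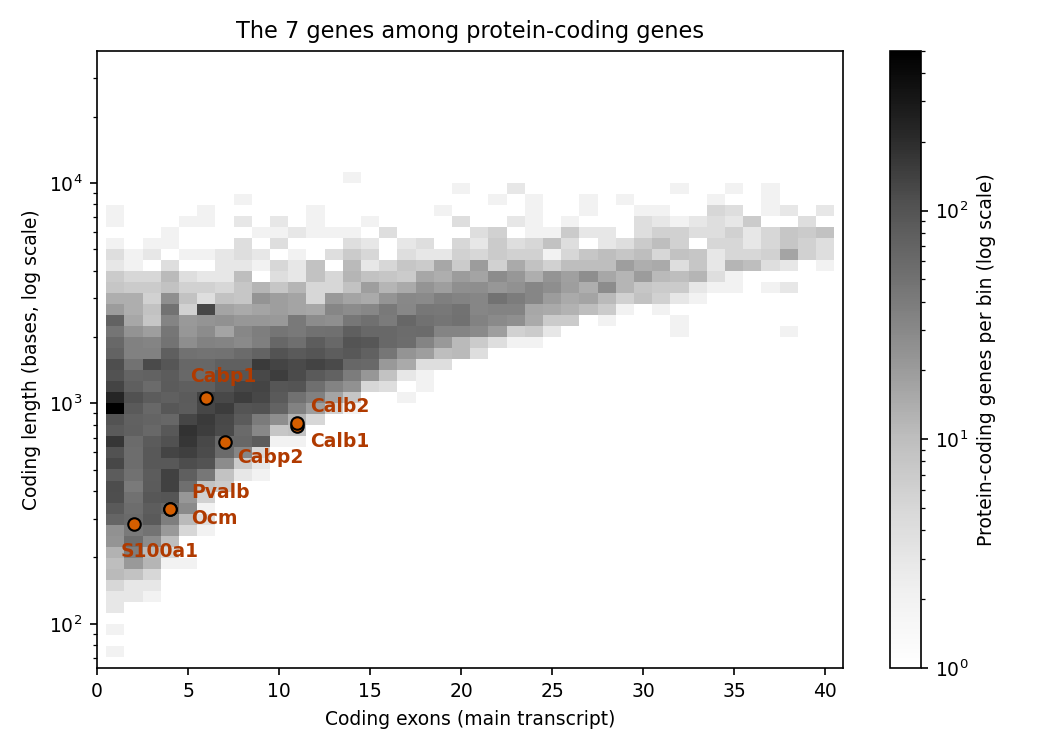
Number of coding exons (x axis) and coding length in bases (y axis, log scale) of the main transcript. Orange points are the 7 genes, and grey shading counts protein-coding genes per bin. The 305 genes with over 40 coding exons or outside the length axis are not drawn. Calb1 and Calb2, with 11 coding exons and 786 and 816 bases, lie at the lower edge of the cloud.

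Over the 7 genes, 22 of 38 coding introns were in phase 0 (57.9%), 12 in phase 1 (31.6%) and 4 in phase 2 (10.5%). Over all protein-coding genes the shares were 45.4%, 32.4% and 22.2%. The 2 calbindin genes supplied 16 of the 22 phase 0 introns. Without Calb1 and Calb2 the other 5 genes had 6 introns in phase 0, 10 in phase 1 and 2 in phase 2, and the share of phase 0 was 33.3%, below that of all genes. An internal exon between introns of the same phase can be left out without a shift of frame. This held for 6 of 9 internal coding exons in Calb1 and in Calb2, for 1 of 4 in Cabp1-004, for 2 of 5 in Cabp2-001 and for none of the 2 in Ocm and in Pvalb. The share was 48.4% over the 7 genes (15 of 31) and 40.8% over all genes.

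An exon of 110 bases stood in Ocm, Pvalb, Cabp1 and Cabp2 and in the relatives Cabp4 and Cabp5. Internal coding exons of this length made up 0.666% of all. Equal length did not mean the same place. In Ocm and Pvalb the exon of 110 bases was the last but one, entered in phase 2 and left in phase 1. In Cabp1 and Cabp2 it was the third from the end, entered in phase 1 and left in phase 0. In the protein alignment, the intron at residue 12 of the last loop was the one intron that Ocm or Pvalb shared with Cabp1 or Cabp2. No intron was shared between any other 2 genes of different families.

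For each gene the 3 genes nearest in layout were sought among those whose main transcript had the same phase series. They were ranked by the summed difference of the coding exon lengths of the main transcripts. For Ocm they were Pvalb, with a difference of 3 bases, 7420461P10Rik with 102 and Smim19 with 111. For Pvalb they were Ocm with 3, 7420461P10Rik with 99 and Smim19 with 108. Calb1 had Calb2 with 36 and Scgn with 63, and Calb2 had Calb1 with 36 and Scgn with 57. For Cabp1 the nearest was Cabp4 with 243. Among main transcripts, Cabp2-001 shared its series of 6 phases with a single other gene, Gclm, at a difference of 561 bases. Other transcripts were not searched. Cabp1-001, which is not the main transcript of Cabp1, has the same 6 phases as Cabp2-001. Its coding exons have 45, 180, 31, 144, 110, 148 and 26 bases, against 57, 159, 31, 135, 110, 148 and 26 in Cabp2-001. S100a1 had S100a5 with 3, S100b with 6 and 1700025B11Rik with 9, out of 478 genes with a single phase 0 intron.

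Alternative first exons were counted over protein-coding transcripts, with first exons that overlap counted as 1. More than 1 was found in 4 of the 7 genes, against 31.9% of all protein-coding genes: Ocm 2, Pvalb 2, Cabp1 2 and Cabp2 3. In Ocm and Pvalb the further first exon was the exon of the start codon itself, which another transcript reaches by splicing. Ocm-001 began with an untranslated exon of 53 bases, and Ocm-201 began 893 bases downstream at the start codon, with no untranslated sequence in its model. Pvalb-001 began with an untranslated exon of 64 bases, and Pvalb-002 began 2163 bases downstream with 92 untranslated bases before the start codon. The Ocm transcripts with complete coding sequence coded for the same protein, as did those of Pvalb. When first exons that overlap a later exon of the same gene were left out, 2 of the 7 genes had more than 1, Cabp1 and Cabp2 with 2 each, against 17.8% of all protein-coding genes. Calb1, Calb2 and S100a1 had 1 first exon each.

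Other ways of counting gave other totals. Over complete coding transcripts alone, 4 of the 7 genes had more than 1 first exon, against 20.2% of all. When every distinct start was counted, 5 of 7 had more than 1, S100a1 being the fifth with starts 114 bases apart, against 48.8%. With starts within 100 bases merged the number was again 5, against 36.6%. Over transcripts of all biotypes it was 5, against 48.5%, with Calb1 in place of S100a1 through a transcript with a retained intron. The start codon of the main transcript lay in a later exon than the first in 2 of the 7 genes, Ocm and S100a1, against 32.5% of all.

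More than 1 distinct coding sequence was annotated for Cabp1 (3), Cabp2 (3) and S100a1 (2), that is 3 of the 7 genes, against 33.3% of all. RefSeq start positions on GRCm38.p6 were available for 5 of the 7 genes. The 2 starts of Pvalb, the 2 of Cabp1 and the 2 of Cabp2 fell on starts of this annotation. The start of S100a1 lay 52 bases upstream of the nearest one. The RefSeq start of Ocm lay 23939 bases upstream of the nearest start, outside the gene as drawn here.

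The 7 genes lay on 6 chromosomes. Ocm and Cabp1 were both on chromosome 5, on the minus strand, 28.8 Mb apart with 388 protein-coding genes between them. Cabp2 lay 48.1 kb from Cabp4, with 3 protein-coding genes between. The partners of each pair with a shared layout were on different chromosomes: 5 and 15 for Ocm and Pvalb, 4 and 8 for Calb1 and Calb2, and 5 and 19 for Cabp1 and Cabp2.

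S100a1 stood at the edge of a cluster. Of the 15 S100 genes listed, 12 were on chromosome 3 and 10 of them within 185 kb, from 90511034 to 90695721. That interval held 13 protein-coding genes, 12 of them with an S100 symbol. S100a1 and S100a9 were on the minus strand and the other 8 listed genes of the cluster on the plus strand. The start of S100a1 faced that of S100a13 with 42 bases between the 2 gene models. A protein-coding gene head to head within 1000 bases was found for 1 of the 7 genes, S100a1, against 6.49% of all protein-coding genes (1432). A gap of 42 bases or less was found for 190 of those 1432 genes.

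**Figure D5:**
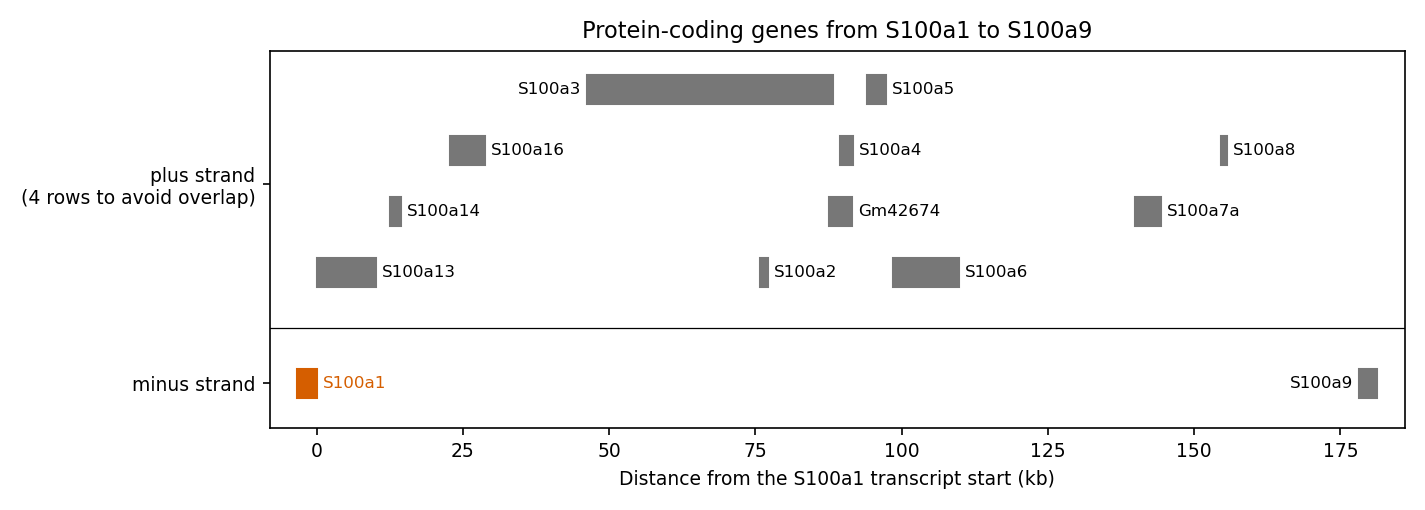
Protein-coding genes from S100a1 to S100a9 on chromosome 3. The x axis is the distance in kb from the S100a1 transcript start, and boxes are gene spans on the plus and minus strands. S100a1 (orange) starts 42 bases from S100a13 and is transcribed away from the other genes drawn.

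The other 6 genes had more room. The nearest protein-coding gene upstream was 73765 bases away for Ocm (Lmtk2), 38400 for Pvalb (Ncf4), 594510 for Calb1 (Tmem64), 47458 for Calb2 (Cmtr2), 41454 for Cabp1 (Pop5) and 22131 for Cabp2 (BC021614). Downstream the distance was 4926 bases for Ocm (Ccz1), 17005 for Pvalb (Ift27), 9175 for Calb1 (Decr1), 30776 for Calb2 (Gm21964), 10509 for Cabp1 (Mlec), 9841 for Cabp2 (Cdk2ap2) and 1535 for S100a1 (Chtop). In all 7 genes, no exon overlapped an exon of another gene on either strand, against an overlap in 21.4% of protein-coding genes, or 4.29% on the same strand alone. No gene span overlapped theirs either, against 28.7% of all. A share of 0 of 7 is not far from these backgrounds and is given as a description.

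Against GENCODE M21, a later annotation on the same build, the main coding exons of all 7 genes were identical. All coding sequences of the 7 genes were found there again. M21 added 1 coding transcript, Calb2-202, with the same 11 coding exons except for a last one of 30 instead of 117 coding bases, which gives 242 in place of 271 amino acids.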

How the data were processed

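The file analysed was the gene annotation that the authors deposited for the whole series, in GTF layout. Its values are genome positions in bases, so depth and its precision concern no value here, and it holds 0 columns of per-sample values. Per the file headers, it follows GRCm38 with patch 4. The submitters' processing notes name Cell Ranger 2.0.2 without saying for which step. No aligner is named: not given in the sources used here.

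Coding lengths include the stop codon. A complete transcript was protein-coding with a start and a stop codon and a length divisible by 3. Of 22048 protein-coding genes, 21474 had one. Coding sequences were taken from GENCODE M21 transcripts with identical coding exons (20791 of the main transcripts, all 30 listed genes included). Proteins were aligned with MAFFT 7.526 (local pairs, 1000 iterations). Identities come from pairwise alignments in Biopython 1.88 (BLOSUM62, gap penalties 11 and 1). Python 3.11.15, NumPy 2.4.6 and Matplotlib 3.10.9 were used. The layout functions were tested on simulated data.

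Genes were named by rule: the 7 genes, the listed relatives, nearest neighbours and the 3 genes nearest in layout (for Cabp1 only the nearest is reported here). The 7 genes and the lists were chosen with earlier results of these data known. Ikzf2 was not compared with GFP, since only the annotation was analysed here; expression values were not used.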

Additional observations from a re-analysis of the deposited data

How the results depend on the processing

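Of 92 alternative values, 73 equalled the value reported or, for counts over several genes, stayed within 1.5 times of it. With the transcript numbered 001, Cabp1 had 7 coding exons and 684 coding bases. With the median over complete transcripts, Cabp1 had 684 coding bases, Cabp2 had 6 coding exons and 612 coding bases, and S100a1 had 238.5 coding bases. By construction these alternatives take another annotated isoform. Counting every distinct start gave 3 for Ocm, 3 for Cabp1, 4 for Cabp2 and 2 for S100a1. Merging starts within 100 bases gave 3 for Cabp1 and 2 for S100a1. Transcripts of all biotypes gave 2 first exons for Calb1, 3 for Cabp1 and 4 for Cabp2, and complete coding transcripts gave 2 for Cabp2. First exons that overlap no later exon, an alternative chosen after seeing the data, numbered 1 for Ocm, 1 for Pvalb and 2 for Cabp2. The counts of intron phases, of shared introns and of overlapping genes stayed within 1.5 times under all their alternatives, and GENCODE M21 changed no coding exon number or coding length. No transcript of Calb2 is numbered 001, so that alternative gave no value for it. No paired analysis was possible because the Ikzf2 and GFP groups hold a single library each. For the same reason no replicate could be left out.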

Other observations

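Beyond the list of 30 EF-hand genes, 4 genes also had a last loop cut in the codon of residue 12 in phase 1. They were named because of this value. Tnnc1 and Tnnc2 code for the troponin C proteins of striated muscle, relatives of calmodulin. Polr2c codes for a subunit of RNA polymerase II and Myom3 for a myomesin of the sarcomere, and neither is known as a calcium sensor. Over all 210 genes, 105 of 357 matching loops were cut by an intron (29.4%), and 13 of them at this place. In the 7 genes, 8 of 20 loops were cut. The 2 places at which loops of Calb1 and Calb2 were cut, residue 4 in phase 1 and before residue 3, were used in 16 and 12 loops of all genes. Calm2 and Calm3 each had 1 loop cut at each of these 2 places and 1 at residue 12.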
